A study of Mus musculus with 6 samples.

Results

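The genes described here are 41 mouse genes of DNA double-strand break repair by homologous recombination and of the Fanconi pathway. They were taken as the rows of the deposited count table whose symbol was on a list of these genes, 41 of 24421 rows. The study sequenced RNA from primary endothelial cell cultures of the stria vascularis, the ion-pumping and vessel-rich layer of the cochlear wall, and compared *Nhe6*-knockout with wildtype cultures, with 3 labelled replicates of each. *Nhe6* encodes an endosomal sodium/proton exchanger. Cells came from untreated mice at postnatal days 10 to 12. Both genotypes carry the label C57BL/6N for the strain background, whereas the methods give C57BL/6J as the background into which the knockout allele, of 129P2 origin, was crossed. Tissue of several mice was pooled for each culture, so a replicate is a culture and not a mouse. The disrupted allele was carried by the mice and not introduced in culture.

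Homologous recombination copies an intact sister chromatid to mend a broken one. The kinases *Atm* and *Atr* signal the damage, nucleases trim the broken ends, *Brca1*, *Palb2* and *Brca2* prepare the exposed strand for pairing with the intact copy, and helicases and nucleases later part the joined chromatids. The Fanconi pathway meets crosslinks between the DNA strands: a core complex attaches ubiquitin to *Fancd2* and *Fanci*, which then pass the lesion on to nucleases and to recombination. These reactions belong to the S and G2 phases, and the transcripts of many of the genes are low in resting cells and higher in cycling cells, where E2F transcription factors act on their promoters.

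A 300-base window from 250 bases before to 50 bases after the annotated start was at hand for 32 of the 41 genes (RefSeq, GRCm38.p6). It was searched on both strands for an E2F site, taken as TTTCCCGC, TTTCGCGC, TTTGCCGC or TTTGGCGC, and 8 of the 32 genes (25.0%) had a match, against 4.59% of the 10240 tested genes with a window and 2.26% of all 32851 windows. The windows of *Clspn* and *Bard1* are shown because they are those with a match among the genes with a large difference between genotypes, *Topbp1* because it has the match and a small difference, and *Fanci* because it has a large difference and no match. Capitals mark the E2F letters, and each sequence runs 5′ to 3′ on the strand of its gene. The window of *Clspn* spans chr4:126556730-126557029 on the plus strand, with the match starting 22 bases after the start. That of *Bard1* spans chr1:71102923-71103222 on the minus strand, with the match starting 209 bases before the start. The window of *Topbp1* covers chr9:103305077-103305376 on the plus strand, with the match starting 129 bases before the start, and that of *Fanci* covers chr7:79392088-79392387 on the plus strand. In the GENCODE M21 annotation *Fanci* begins at chr7:79391929, ahead of its whole window. The bases before that other start were not searched.
Clspn: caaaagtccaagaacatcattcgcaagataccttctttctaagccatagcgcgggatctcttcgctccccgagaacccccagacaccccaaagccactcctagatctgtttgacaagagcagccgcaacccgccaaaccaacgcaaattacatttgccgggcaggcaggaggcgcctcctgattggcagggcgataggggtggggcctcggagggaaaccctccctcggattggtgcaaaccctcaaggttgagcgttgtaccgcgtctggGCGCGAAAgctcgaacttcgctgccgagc
Bard1: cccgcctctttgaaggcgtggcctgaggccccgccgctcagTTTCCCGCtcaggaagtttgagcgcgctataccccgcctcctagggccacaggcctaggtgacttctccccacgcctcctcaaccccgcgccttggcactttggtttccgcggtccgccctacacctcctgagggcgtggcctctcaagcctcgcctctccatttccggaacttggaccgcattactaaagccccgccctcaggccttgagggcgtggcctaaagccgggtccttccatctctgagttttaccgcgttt
Topbp1: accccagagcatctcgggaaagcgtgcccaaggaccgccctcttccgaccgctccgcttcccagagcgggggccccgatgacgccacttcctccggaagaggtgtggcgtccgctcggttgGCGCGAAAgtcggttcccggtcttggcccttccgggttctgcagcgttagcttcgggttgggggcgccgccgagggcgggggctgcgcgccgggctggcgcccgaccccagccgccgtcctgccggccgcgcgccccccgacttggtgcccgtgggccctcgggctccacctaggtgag
Fanci: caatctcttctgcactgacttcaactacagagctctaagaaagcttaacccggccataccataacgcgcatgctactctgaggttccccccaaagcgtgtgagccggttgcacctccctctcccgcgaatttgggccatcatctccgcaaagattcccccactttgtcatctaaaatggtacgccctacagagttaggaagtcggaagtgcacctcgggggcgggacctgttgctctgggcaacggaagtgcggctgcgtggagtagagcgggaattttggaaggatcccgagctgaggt

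The E2F letters occurred in 2 of 11 genes (18.2%) with a log2 fold change of at least 1 and in 6 of 21 (28.6%) of the other genes. Some genes with a log2 fold change of at least 1, *Exo1* among them, had no window. Variants with 1 letter changed, which the *Fanci* window holds, were not counted, so these few genes do not settle whether such sites differ. A CCAAT box (CCAAT) was found in 20 of the 32 genes (62.5%), against 42.9% of the tested genes with a window. It was in 6 of the 11 genes (54.5%) with a log2 fold change of at least 1 and in 14 of the 21 others (66.7%). A CHR element (TTTGAA or TTCGAA), a sequence of late cell-cycle promoters, was found in 3 of the 32 genes (9.38%), against 16.1%. It was in 2 of the 11 genes (18.2%) and in 1 of the 21 others (4.76%), too few to compare. These letter matches describe the windows and do not show binding.

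Reads counted on genes numbered 25587097 to 29126232 per library. A normalised count is the read count scaled by edgeR's TMM factor to the mean library size, and fold changes are *Nhe6*-knockout over wildtype. *Hprt*, a housekeeping gene on the X chromosome, fell in knockout cultures, with a log2 fold change of -7.31 ± 0.28 (SE; edgeR adjusted p = 0.00138). Along the first principal component, wildtype replicate 2 had 106.2 and the other 5 libraries -28.5 to -6.52. *Nhe6*-knockout replicates 1 and 2 were the closest pair of libraries, with a chi-square per degree of freedom of 4.925 against 90.9 to 405 in the other pairs within a genotype, which is still above sampling noise. It was not tested whether this pair shared a culture, in which case the knockout n would be 2 and the p-values and standard errors here too small. With the pair summed to 1 library, 0 of the 41 repair genes had an edgeR adjusted p under 0.05, where 1 of 13685 genes tested had one. An unadjusted p under 0.05 was seen in 11 of the 41, and the share of all genes was not counted in that fit. Of 15 endothelial markers, 9 had enough reads to be tested and 6 did not. Among the latter, *Cldn5* and *Robo4* had no read in any library and *Pecam1* had 1 to 8 reads. The 10 fibroblast markers summed to 267279 to 399853 normalised counts per library, and the 15 endothelial markers to 15990.1 to 25945. Each sum follows the most abundant markers of its list. The label of endothelial cells thus rests on part of its markers, since 9 of the 15 had enough reads to be tested, and the cultures are called here by genotype. *Cdh5*, the adherens junction cadherin of endothelium, was detected and fell in knockout cultures, with a log2 fold change of -4.15 ± 0.31 (SE; edgeR adjusted p = 0.0133). The adjusted p of *Cdh5* was under 0.05 in 8 of 14 alternatives and reached 0.181 in the others.

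All 41 repair genes passed the filter and were tested among 13479 genes. *Exo1*, *Dna2*, *Rad54b*, *Eme1* and *Fanca* had at least 10 reads in every knockout culture but not in every wildtype culture. They passed the filter because of the knockout cultures, where they were higher, so their place in the counts below is not separate from that difference. In edgeR's quasi-likelihood test with Benjamini-Hochberg adjustment, 0 of the 41 had an adjusted p under 0.05, where 0.0668% of all genes tested had one. At an unadjusted p under 0.05, 17 of the 41 were higher in *Nhe6*-knockout cultures, against 6.14% of all genes tested, and 0 were lower, against 5.71%. In edgeR's fit the log2 fold change was above 0 for 34 of the 41, against 48.1% of all genes tested, and it was at least 1 for 14 of the 41, against 4.98%. Its median over the 41 genes was 0.41, beside -0.02 over all genes tested, and the range ran from -0.28 for *Fancf* to 3.02 for *Fanca*. For 19 of the 41 genes every knockout culture lay above every wildtype culture, against 10.3% of all genes tested. For 2 of the 41, *Nbn* and *Rad51d*, every knockout culture lay below, against 9.57%.

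Whether a gene passed the threshold depended on the test and on 1 library. DESeq2's Wald test gave an adjusted p under 0.05 to 10 of the 41 genes, all higher in the knockout cultures, against 2.85% of the genes to which it gave an adjusted p. These were *Clspn*, *Exo1*, *Brca1*, *Brip1*, *Rad51ap1*, *Rad54l*, *Rad54b*, *Eme1*, *Fanca* and *Fanci*. Without wildtype replicate 2, edgeR's test gave 6 of the 41, again all higher, against 1.62% of the genes tested. The 6 genes *Clspn*, *Exo1*, *Brip1*, *Rad51ap1*, *Rad54b* and *Fanci* were also among the 10 of DESeq2 (60.0% of the 10, and each of the 6). The adjusted p of *Clspn* ran from 1.23e-10 with DESeq2 to 0.455 over the 14 alternatives, and without wildtype replicate 2 those of the 6 genes lay between 0.0239 (*Clspn*) and 0.0479 (*Exo1*). A bulk library cannot tell more RNA per cell from more cells that express a gene. For a single gene, a two-sided exact permutation test of 3 cultures against 3 can give no p below 0.1.

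**Figure D1:**
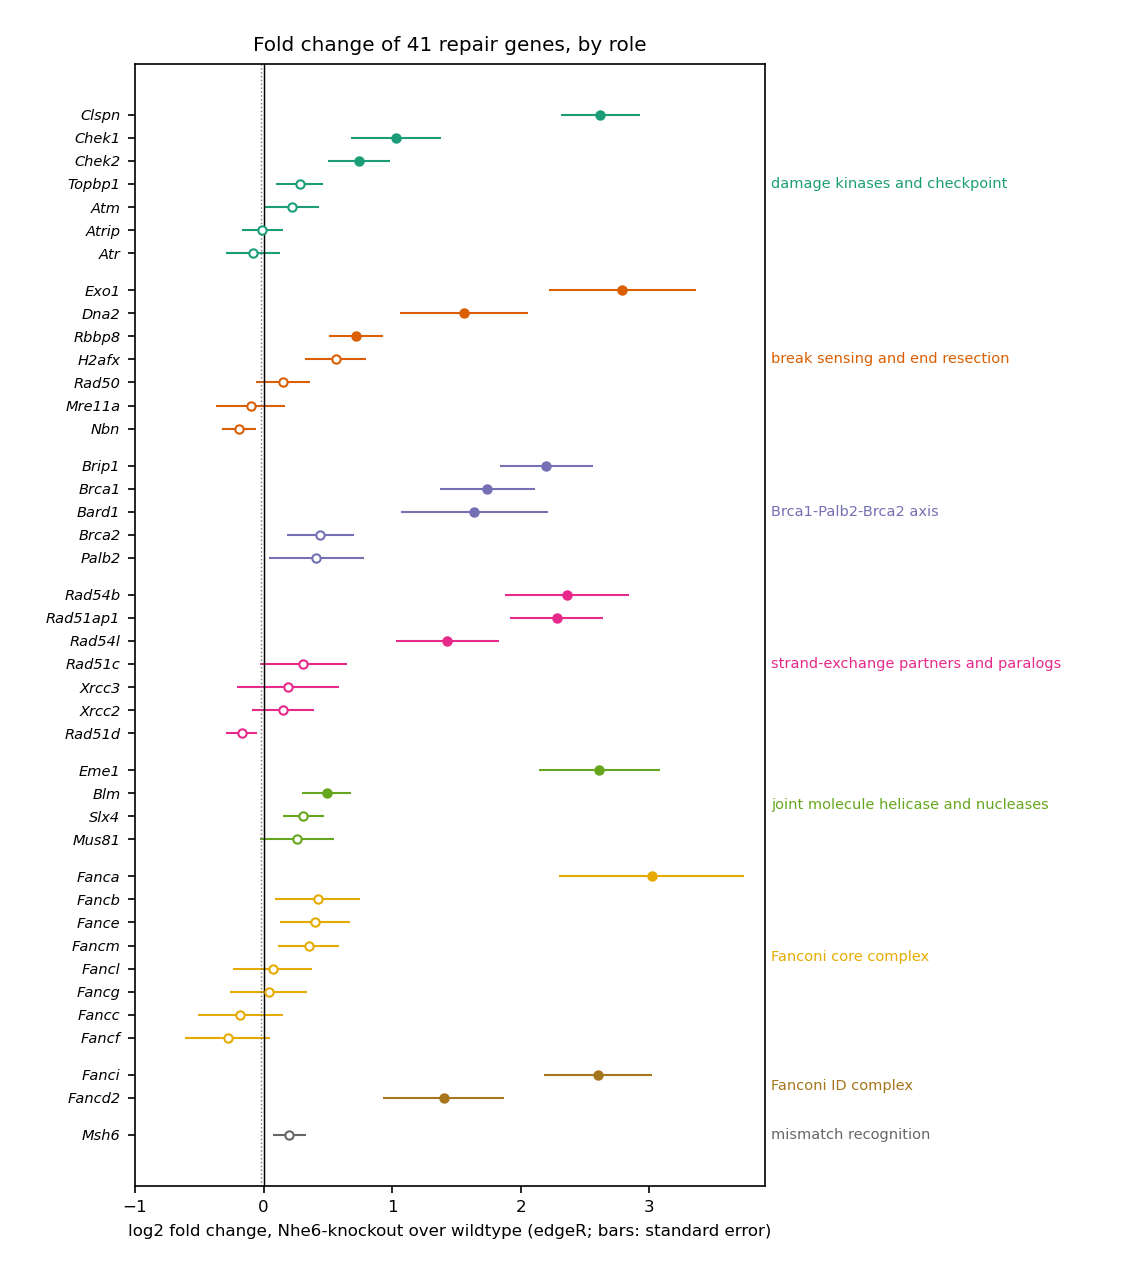
Log2 fold change of *Nhe6*-knockout over wildtype for the 41 repair genes, grouped by role, with the standard error of edgeR's fit as bars. Filled points have an unadjusted p under 0.05 (17 genes), open points do not, and the dotted line is the median of all genes tested (-0.02). Every role except mismatch recognition has a filled point, from 2 of 2 genes of the Fanconi ID complex to 1 of 8 of the Fanconi core complex. Of all genes tested, 6.14% were higher and 5.71% lower at this threshold.

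In the group of damage kinases and checkpoint genes, 3 of 7 genes were higher at an unadjusted p under 0.05, and the median log2 fold change was 0.28. The share of all genes tested that were higher at this threshold was 6.14%, which applies to the roles that follow as well. *Clspn* (chr4:126556935-126593903, plus strand; GENCODE M21 on GRCm38, as for the positions that follow) encodes claspin, the adaptor through which Atr activates the checkpoint kinase Chek1. It had 258, 257 and 156 normalised counts in the knockout cultures and 33.3, 41.3 and 34.2 in the wildtype cultures. The groups did not overlap, and knockout replicate 3 was the lowest of its genotype. Its log2 fold change was 2.62 ± 0.31 (SE), with an edgeR adjusted p of 0.0619, the smallest of the 41 genes, and *Clspn* ranked 21 among all genes tested by p. The kinases that act directly below the sensors had smaller log2 fold changes, 1.03 ± 0.35 (SE) for *Chek1* and 0.74 ± 0.24 (SE) for *Chek2*, with no overlap for either. *Atm*, the break-sensing kinase and the gene of this group with most counts, had 2152, 2167 and 1689 normalised counts in the knockout cultures and 1274, 2073 and 1809 in the wildtype cultures. These groups overlapped, and wildtype replicate 1 was the lowest library. *Atm* had a log2 fold change of 0.22 ± 0.21 (SE; edgeR adjusted p = 0.747). *Atr*, the kinase of stalled forks, its partner *Atrip* and its activator *Topbp1* also overlapped, with log2 fold changes of -0.08, -0.01 and 0.28. Part of the exon sequence of *Atrip* (16%) lies within *Trex1* on the same strand, so reads there cannot be given to 1 gene.

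Among the 7 genes of break sensing and end resection, 3 were higher at an unadjusted p under 0.05, and the median log2 fold change was 0.56. The genes with the large values were the long-range resection nucleases and not the complex that first binds the ends. *Exo1* (chr1:175880581-175913489, plus strand), a 5′ to 3′ exonuclease, had 94.5, 83.6 and 37.9 normalised counts in the knockout cultures and 5.87, 16.5 and 8.56 in the wildtype cultures. Every knockout value was above every wildtype value, although wildtype levels were close to the limit of counting. Its log2 fold change was 2.79 ± 0.57 (SE; edgeR adjusted p = 0.123). *Dna2*, the helicase and nuclease of the parallel resection route, had 69.0, 55.8 and 41.7 against 24.4, 8.26 and 23.5 normalised counts. The groups lay apart, with wildtype replicate 2 the lowest of all 6 libraries. The log2 fold change was 1.56 ± 0.50 (SE; edgeR adjusted p = 0.301). *Rbbp8*, which encodes CtIP, the factor that starts resection, had 593, 534 and 626 against 331, 283 and 453 normalised counts. Here knockout replicate 3 was the highest library, unlike for *Exo1* and *Dna2*, and the groups did not overlap. This gave a log2 fold change of 0.72 ± 0.21 (SE; edgeR adjusted p = 0.263).

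*Mre11a*, *Rad50* and *Nbn* make up the complex that recognises the broken ends. *Rad50*, the member of this group with most counts, had 1337, 1368 and 1395 normalised counts in the knockout cultures and 855, 1489 and 1340 in the wildtype cultures. The knockout values lay inside the wildtype range. On the log2 scale the difference was 0.15 ± 0.21 (SE; edgeR adjusted p = 0.836), and without wildtype replicate 1 it was -0.05. *Nbn* had 946, 922 and 795 against 1025, 948 and 1074 normalised counts. Its groups did not overlap, with knockout below wildtype, but replicate 1 of the knockout and replicate 2 of the wildtype differed by little. The fitted log2 fold change was -0.19 ± 0.13 (SE; edgeR adjusted p = 0.625). *Mre11a*, the nuclease of the complex, had a log2 fold change of -0.10 ± 0.27 (SE) and overlapped. *H2afx*, the histone variant phosphorylated around breaks, had 0.56 ± 0.24 (SE) without overlap.

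The Brca1-Palb2-Brca2 axis had the highest median log2 fold change of the roles with more than 2 genes, 1.64 over 5 genes, and 3 of the 5 were higher at an unadjusted p under 0.05. *Brca1* (chr11:101488764-101551955, minus strand) encodes a ubiquitin ligase subunit that promotes resection. It had 459.9, 444 and 203 normalised counts in the knockout cultures and 111, 133 and 86.7 in the wildtype cultures. Knockout replicate 3 had less than the other knockout cultures and still lay above each wildtype culture. In edgeR's fit the log2 fold change was 1.74 ± 0.37 (SE; edgeR adjusted p = 0.134). *Brip1*, the Brca1-bound helicase also known as FANCJ, had 126, 144 and 92.8 against 28.4, 32.0 and 18.2 normalised counts. The genotypes were well apart. Its log2 fold change was 2.2 ± 0.36 (SE; edgeR adjusted p = 0.0952). *Bard1*, the obligate partner of Brca1 in the ligase, had a log2 fold change of 1.64 ± 0.57 (SE), also with no overlap.

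*Brca2*, a mediator that acts on the resected single-stranded DNA, had 362, 306 and 310 normalised counts in the knockout cultures and 160, 272 and 289 in the wildtype cultures. The groups did not overlap, but wildtype replicates 2 and 3 came close to the knockout values. The log2 fold change was 0.44 ± 0.26 (SE; edgeR adjusted p = 0.577). *Palb2*, the bridge between Brca1 and Brca2, had 0.41 ± 0.37 (SE) with overlap and was among the low genes, at 7.23 normalised counts per kb of exon in knockout and 5.44 in wildtype cultures.

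Among the 7 strand-exchange partners and paralogs, the 3 partners *Rad54b*, *Rad51ap1* and *Rad54l* had an unadjusted p under 0.05 and the 4 paralogs did not. *Rad51ap1* (chr6:126923050-126939587, minus strand) encodes a protein that stimulates strand pairing. It had 96.7, 77.1 and 62.5 normalised counts in the knockout cultures and 13.7, 19.6 and 15.0 in the wildtype cultures. The lowest knockout value was far above the highest wildtype value. This gave a log2 fold change of 2.28 ± 0.36 (SE; edgeR adjusted p = 0.0952). *Rad54l* and *Rad54b* encode DNA translocases that help the broken strand to invade the template. *Rad54l* had 81.8, 103 and 53 against 34.2, 20.6 and 33.2 normalised counts. The nearest cultures of the groups were knockout replicate 3 and wildtype replicate 1. On the log2 scale the difference was 1.43 ± 0.40 (SE; edgeR adjusted p = 0.242). *Rad54b* had 68, 47.4 and 50.2 against 5.87, 16.5 and 9.63 normalised counts, with no overlap. The fitted log2 fold change was 2.36 ± 0.48 (SE; edgeR adjusted p = 0.119). Of its exon bases, 35.8% are shared with *Fsbp* on the same strand, and the counts cannot separate the pair there.

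The paralogs *Rad51c*, *Rad51d*, *Xrcc2* and *Xrcc3* form complexes that assist strand exchange. *Rad51d* had 689, 640 and 683 normalised counts in the knockout cultures and 785, 775 and 700 in the wildtype cultures. All knockout values were below all wildtype values by a small margin. In edgeR's fit the log2 fold change was -0.17 ± 0.12 (SE; edgeR adjusted p = 0.662). The other paralogs overlapped between genotypes, with log2 fold changes of 0.31 for *Rad51c*, 0.19 for *Xrcc3* and 0.15 for *Xrcc2*.

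Of the 4 genes whose products undo joined DNA molecules, 2 were higher at an unadjusted p under 0.05. *Eme1* (chr11:94644996-94653964, minus strand), the regulatory subunit of the Mus81 nuclease, had 45.7, 76.2 and 36 normalised counts in the knockout cultures and 7.82, 11.4 and 6.42 in the wildtype cultures. The genotypes did not overlap, and wildtype replicate 2 held the highest wildtype value. Its log2 fold change was 2.61 ± 0.47 (SE; edgeR adjusted p = 0.106). Its catalytic partner *Mus81* overlapped, with a log2 fold change of 0.26 ± 0.29 (SE). *Slx4*, the scaffold that holds this and other nucleases, had 937, 940 and 810 against 676, 845 and 639 normalised counts. Wildtype replicate 2 exceeded knockout replicate 3. The log2 fold change was 0.31 ± 0.16 (SE; edgeR adjusted p = 0.496). *Blm*, the helicase that dissolves double Holliday junctions, had 0.49 ± 0.19 (SE) with no overlap.

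In the Fanconi core complex, the median log2 fold change of 0.21 was the lowest of the roles with more than 1 gene. At an unadjusted p under 0.05, 1 of 8 genes was higher, against 6.14% of all genes tested, and 1 gene cannot set this role apart from that share. *Fanca* (chr8:123268300-123318576, minus strand) was that gene, with 108, 142 and 48.3 normalised counts in the knockout cultures and 13.7, 19.6 and 3.21 in the wildtype cultures. The groups did not overlap, but replicates of each genotype differed widely. This gave a log2 fold change of 3.02 ± 0.72 (SE; edgeR adjusted p = 0.170), at once the largest value and the largest standard error of the 41 genes. Of the exon bases of *Fanca*, 10.5% overlap *Zfp276* on the opposite strand. *Fancm*, the translocase that anchors the core complex to DNA, had 759, 670 and 772 against 501, 441 and 787 normalised counts. Wildtype replicate 3 was the highest library. On the log2 scale the difference was 0.35 ± 0.24 (SE; edgeR adjusted p = 0.643).

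*Fancc*, another subunit of the core complex, had 159, 151 and 261 normalised counts in the knockout cultures and 155, 285 and 209 in the wildtype cultures. The ranges overlapped almost fully. The fitted log2 fold change was -0.18 ± 0.33 (SE; edgeR adjusted p = 0.880), and it was 0.06 without wildtype replicate 2. *Fancf*, an adaptor within the complex, had 86.0, 54.8 and 100 against 77.3, 110 and 105 normalised counts, again overlapping. In edgeR's fit the log2 fold change was -0.28 ± 0.33 (SE; edgeR adjusted p = 0.806). The remaining core genes, *Fancb*, *Fance*, *Fancg* and the ubiquitin ligase subunit *Fancl*, had log2 fold changes from 0.04 to 0.42 and overlapped.

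Both genes of the Fanconi ID complex, the substrate of the core complex, were higher at an unadjusted p under 0.05, with no overlap. *Fanci* (chr7:79391929-79450264, plus strand) had 189, 169 and 86.1 normalised counts in the knockout cultures and 19.6, 32.0 and 21.4 in the wildtype cultures. Its log2 fold change was 2.60 ± 0.42 (SE; edgeR adjusted p = 0.0952), and 16% of its exon bases overlap *Polg* on the opposite strand. *Fancd2* had 190, 201 and 134 against 70.4, 28.9 and 99.5 normalised counts. Wildtype replicate 2 was the lowest library, and replicates 3 of both genotypes were nearest to each other. The log2 fold change was 1.40 ± 0.47 (SE; edgeR adjusted p = 0.325). *Msh6*, which recognises base mismatches, had 1528, 1562 and 1553 against 1262, 1544 and 1243 normalised counts. Wildtype replicate 2 lay within the knockout range. This gave a log2 fold change of 0.20 ± 0.13 (SE; edgeR adjusted p = 0.612).

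**Figure D2:**
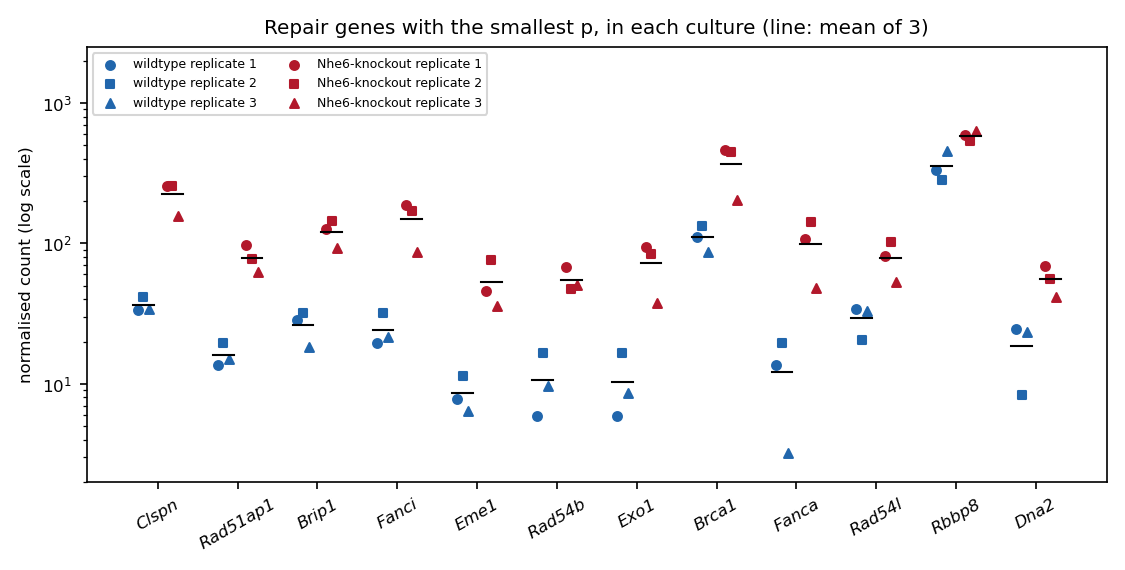
Normalised count in each culture, on a log scale, of the 12 repair genes with the smallest unadjusted p, with wildtype in blue, *Nhe6*-knockout in red, a symbol for each replicate number and the mean of 3 cultures as a line. Every red point lies above every blue point of its gene, *Clspn* from 156 to 258 against 33.3 to 41.3, and the knockout triangle (replicate 3) is the lowest of its group for most genes.

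The 14 genes with a log2 fold change of at least 1 shared a low level in wildtype cultures. Scaled to the length of exon, the median wildtype level was 3.66 normalised counts per kb for these 14 genes and 62.8 for the other 27. Across the 41 genes, the Spearman correlation of the wildtype level per kb with the log2 fold change was -0.767, and it was -0.703 with the mean level of all 6 libraries. Both are descriptions over genes that share the same 6 libraries, and the wildtype counts enter the fold change as well. The highest genes per kb in wildtype cultures were *Nbn* at 401, *Msh6* at 311 and *Rad50* at 228 normalised counts per kb. Their log2 fold changes were between -0.19 and 0.20. In 5 genes, *Exo1*, *Dna2*, *Rad54b*, *Eme1* and *Fanca*, at least 1 library had fewer than 10 reads. Genes on the opposite strand overlapped over 10% of the exon bases in 8 of the 41 genes, among them *Fancc* (18.6%), *Rad54l* (15.4%), *Fancf* (15.0%), *Fancl* (13.7%) and *Eme1* (10.7%), and their part in the counts was not tested. With at least 10 reads required in every library, 36 of the 41 genes could be tested, and *Clspn* had an edgeR adjusted p of 0.0456. Of these 36, 12 were higher and 0 lower at an unadjusted p under 0.05 in edgeR's test, and the share of all genes was not counted in that fit.

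**Figure D3:**
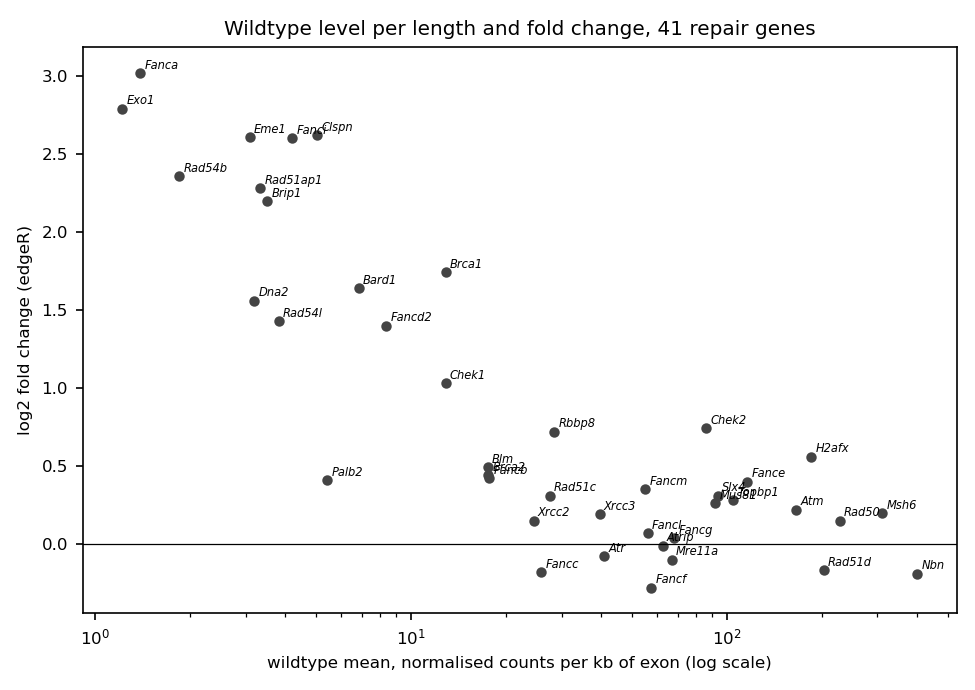
Mean wildtype level in normalised counts per kb of exon (log scale) against the log2 fold change of *Nhe6*-knockout over wildtype, 1 point for each of the 41 repair genes. Genes with a log2 fold change of at least 1 sit at low wildtype levels (median 3.66 per kb), and the other 27 reach up to 401 per kb.

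Summed over the 41 genes, the counts were 17754, 17796 and 15826 in the knockout cultures and 12540.4, 15296 and 14146 in the wildtype cultures, a ratio of means of 1.22. The 14 genes with the large values summed to 2051, 2065 and 1203 against 422, 508 and 474, a ratio of 3.79, and the other 27 to 15703, 15731 and 14623 against 12119, 14788 and 13672, a ratio of 1.14. The split was made on the same fold changes, so these ratios describe it and test nothing. Knockout replicate 3 was the lowest knockout culture for 13 of the 14 genes and for 28 of all 41. Among the wildtype cultures, replicate 2 was the highest for 10 of the 14.

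Beside the ratios of 3.79 for the 14 genes and 1.22 for all 41, a list of 20 proliferation markers was also higher in the knockout cultures. It summed to 19830.4, 19854 and 12315 normalised counts in the knockout cultures and 6666, 6766 and 6573 in the wildtype cultures, a ratio of 2.60, and knockout replicate 3 was again the lowest knockout culture. Of the 20 markers, 17 were higher at an unadjusted p under 0.05 and 0 lower, against 6.14% and 5.71% of all genes tested. Their median log2 fold change was 1.77. DESeq2 called 14 of them higher, against 2.85% of the genes to which it gave an adjusted p. Without wildtype replicate 2, edgeR called 9 higher, against 1.62% of the genes tested. *Top2a*, the topoisomerase that untangles chromosomes before mitosis, had a log2 fold change of 3.34 ± 0.40 (SE; edgeR adjusted p = 0.0652), and *Cdk1*, the kinase of entry into mitosis, had 1.71 ± 0.23 (SE; edgeR adjusted p = 0.0800). The ratio of the summed 14 repair genes to the summed markers was 0.103, 0.104 and 0.0977 in the knockout cultures and 0.0632, 0.0750 and 0.0721 in the wildtype cultures. The 14 genes were chosen by their fold change in these same data, and the markers were not. That choice raises the ratio in the knockout cultures, so the ratio tests nothing. For all 41 repair genes the order of the genotypes was the opposite, with ratios of 0.895, 0.896 and 1.29 in knockout and 1.88, 2.26 and 2.15 in wildtype cultures. The part of a different share of cycling cells in the repair gene values was not tested. The summed markers of endothelial cells, fibroblasts, mural cells, macrophages, melanocytes and epithelial cells overlapped between genotypes in each of the 6 lists. Their ranges were 16883 to 25945 in knockout and 15990.1 to 23651 in wildtype cultures for endothelial cells, and 280652 to 297581 and 267279 to 399853 for fibroblasts. Mural markers summed to 22089 to 24348 and 16268 to 35247, and macrophage markers to 612 to 1244 and 115 to 1515. Melanocyte markers summed to 408 to 711 and 288 to 1210.1, and epithelial markers to 57.7 to 731 and 3.10 to 1157. Such sums follow the most abundant markers, and single markers differed. Of the 9 endothelial markers tested, 4 had a log2 fold change of -1 or less, and 3 were lower and 0 higher at an unadjusted p under 0.05. Of the 10 mural markers, 5 had a log2 fold change of at least 1 and 3 of -1 or less, 5 had every knockout culture above every wildtype culture, and 2 were higher and 0 lower at an unadjusted p under 0.05. Over all genes tested, 6.14% were higher and 5.71% lower at this threshold. A log2 fold change of at least 1 was seen in 4.98%, and every knockout culture lay above in 10.3%. The part of the cell type markers in the repair gene values was not tested.

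**Figure D4:**
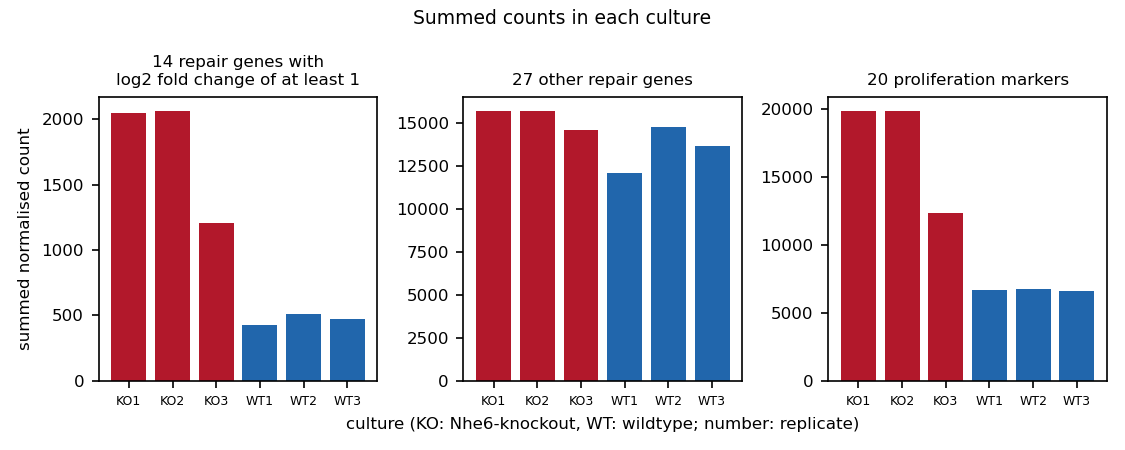
Summed normalised counts in each culture of the 14 repair genes with a log2 fold change of at least 1, of the 27 other repair genes and of 20 proliferation markers, with *Nhe6*-knockout (KO) in red and wildtype (WT) in blue. In the left and right panels KO3 is the lowest red bar (1203 and 12315) and still above each blue bar (at most 508 and 6766).

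The other genes of recombination had few large values. Of 31 tested in a list of 32, 5 were higher and 1 lower at an unadjusted p under 0.05, and the median log2 fold change was 0.14. Over all genes tested, 6.14% were higher and 5.71% lower at this threshold, which holds for the lists that follow as well. *Parpbp* and *Fignl1*, which encode proteins that restrain strand exchange, had log2 fold changes of 2.00 ± 0.27 (SE; edgeR adjusted p = 0.0800) and 2.01 ± 0.34 (SE; edgeR adjusted p = 0.0983). *Gen1*, a nuclease that cuts Holliday junctions, had 2.29 ± 0.51 (SE; edgeR adjusted p = 0.148). Of 15 other Fanconi pathway genes, 1 was higher at an unadjusted p under 0.05, with a median of 0.12. It was *Ube2t*, the ubiquitin-conjugating enzyme that acts on Fancd2 and Fanci, at 2.15 ± 0.73 (SE; edgeR adjusted p = 0.327). Of 15 other checkpoint genes, 1 was higher (*Rhno1*, 0.40 ± 0.16, SE) with a median of 0.03.

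The remaining repair pathways had medians between -0.10 and 0.17. End joining had a median log2 fold change of -0.10 over 10 genes, with 1 higher and 1 lower at an unadjusted p under 0.05. The higher gene was *Polq*, the polymerase of microhomology-mediated joining, at 1.61 ± 0.35 (SE; edgeR adjusted p = 0.136). The lower gene was *Xrcc5*, a subunit of the Ku end-binding dimer, at -0.36 ± 0.11 (SE; edgeR adjusted p = 0.280). Mismatch repair had a median of -0.04 over 6 genes, with 0 higher and 1 lower. *Mlh3* was the lower gene, with 444, 554 and 587 normalised counts in the knockout cultures and 866, 1204 and 977 in the wildtype cultures. Its groups did not overlap, and the log2 fold change was -0.94 ± 0.18 (SE; edgeR adjusted p = 0.114). Nucleotide excision repair had 0.05 over 21 genes, with 1 higher and 1 lower.

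Base excision repair had a median of 0.17 over 20 genes tested, with 2 higher and 1 lower at an unadjusted p under 0.05. *Neil3*, a glycosylase that also opens crosslinks between strands, had 137, 153 and 75.7 normalised counts in the knockout cultures and 5.87, 11.4 and 8.56 in the wildtype cultures. The genotypes lay far apart, and the log2 fold change was 3.81 ± 0.46 (SE; edgeR adjusted p = 0.0652), above that of each of the 41 genes. *Neil3* passed the filter because of the knockout cultures. Targets of p53, the transcription factor switched on by DNA damage, had a median of 0.18 over 16 genes, with 0 higher and 1 lower. The lower gene was *Gadd45a*, at -1.04 ± 0.39 (SE; edgeR adjusted p = 0.367). Without wildtype replicate 2, 3 of the 16 had an edgeR adjusted p under 0.05, all higher, against 1.62% of the genes tested. These were *Eda2r* (0.0241), *Aen* (0.0300) and *Zmat3* (0.0438), named after their values were seen. DESeq2 called 0 of the 16 higher, against 2.85% of the genes to which it gave an adjusted p. Of 16 recombination genes restricted to meiosis, 5 had enough reads to be tested, and 1 of the 5, *Tex11*, was higher at an unadjusted p under 0.05, at 3.02 ± 0.52 (SE; edgeR adjusted p = 0.100) from 17.0 to 34.4 against 2.14 to 4.13 normalised counts. *Tex11* passed the filter through the knockout cultures alone, so its being tested and its being higher are not separate results. Among 19 E2F and MuvB regulators, 6 were higher and 1 lower, with a median of 0.09. *Foxm1*, a transcription factor of the G2 phase, had 1.34 ± 0.20 (SE; edgeR adjusted p = 0.0869), and *E2f7*, an atypical E2F repressor, had 2.74 ± 0.50 (SE; edgeR adjusted p = 0.108).

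**Figure D5:**
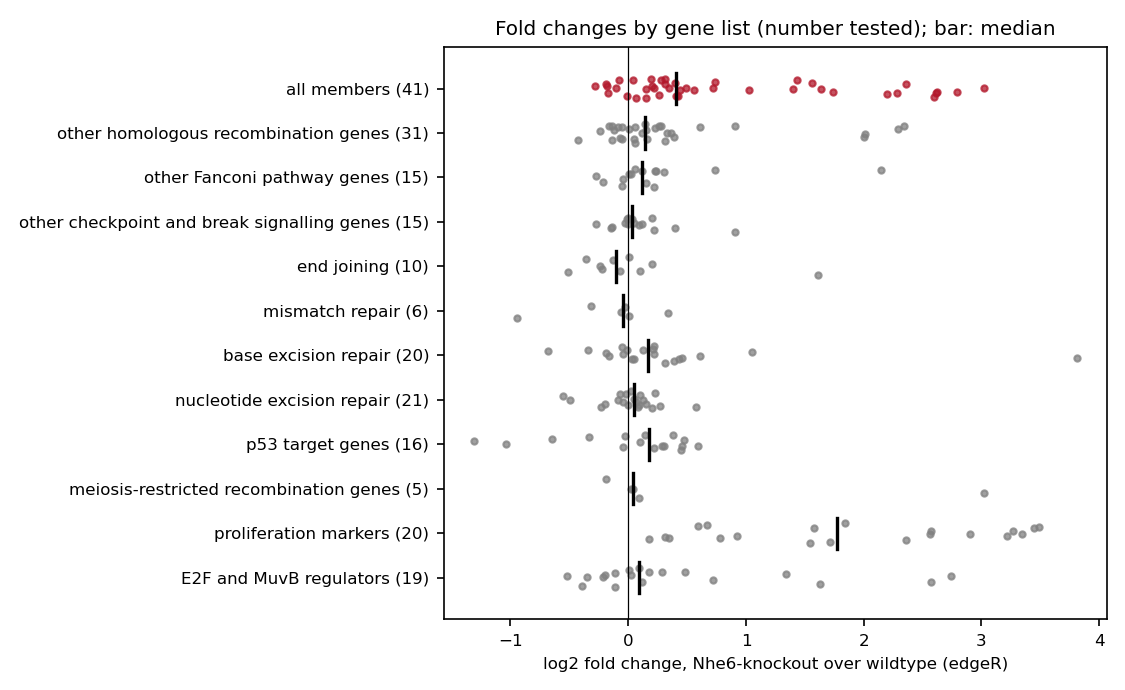
Log2 fold change of each tested gene in the 41 repair genes (red) and in 11 other lists (grey), with the number tested in brackets and the median as a black bar. Medians lie between -0.10 and 0.18 in the lists other than the 41 repair genes (0.41) and the proliferation markers (1.77).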

How the data were processed

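RNA of 6 primary cultures, 3 *Nhe6*-knockout and 3 wildtype, was sequenced as poly(A)-enriched stranded libraries. The authors deposited 1 table of raw counts of reads per gene symbol and library, with neither normalization nor filtering. The submitters' processing notes name bcl2fastq 2.20.0.422, STAR 2.7.7a, HTSeq 0.13.5, DESeq2 1.26.0 and the build mm10. The strand setting of the counting is not given in the sources used here, so reads of overlapping genes on opposite strands may not be told apart, and reads of overlapping genes on 1 strand cannot be split. Lines that name no gene held 21.47% to 23.61% of the reads of a library and were left out.

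Columns were matched to cultures by genotype and replicate number. Of 24421 genes, 17769 had at least 1 count, and edgeR's filterByExpr (minimum count 10) kept 13479. TMM factors ranged from 0.976 to 1.03. Differences between genotypes were tested by quasi-likelihood in edgeR 4.0.16 (R 4.3.3; two-sided; genotype alone; Benjamini-Hochberg over all genes tested; threshold 0.05), tested on simulated data beforehand. Standard errors (SE) were obtained as the absolute log2 fold change over the root of F. P-values measure the spread between the labelled replicates, which were taken as separate cultures.

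The 41 genes, the other lists, the motifs and the rules for naming genes were chosen with earlier results of these data known. Values per culture are given for the 12 repair genes with the smallest p, the 4 with a log2 fold change below 0 and the smallest p, and the gene with most counts of each role. From each other list up to 4 genes with the smallest p could be named. Comparisons of library pairs used a chi-square over genes with a summed count of at least 20. Gene positions and exon lengths came from GENCODE M21 on GRCm38, where all 41 symbols matched, and promoter windows from RefSeq on GRCm38.p6, where 32 matched.

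As alternatives, edgeR was run with upper-quartile or DESeq2 scaling, with genes kept from 1 count in any library or only from 10 counts in all libraries, with the replicate number as a block, and without each culture in turn. The Wald test of DESeq2 1.42.0 and limma-voom (limma 3.58.1) replaced edgeR in 2 further runs. Summing *Nhe6*-knockout replicates 1 and 2, and counting genes at an unadjusted p under 0.05 under each setting, were added after seeing the data. DESeq2 gave an adjusted p to 13381 genes, and the others were left out of its shares. Some genes, the targeted gene among them, are not reported here.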

Additional observations from a re-analysis of the deposited data

How the results depend on the processing

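The number of repair genes with an adjusted p under 0.05, 0 in edgeR, was 10 with DESeq2 and 1 with at least 10 counts in every library, and it ranged from 0 to 6 when 1 culture was left out, with 6 without wildtype replicate 2 and 0 without each of the others. The cause was not tested. Under the stricter filter fewer genes were tested (12394), and the unadjusted p of *Clspn* in edgeR's test was 6.99e-05, against 9.80e-05 in the main fit. The 17 repair genes with an unadjusted p under 0.05 became 11 with *Nhe6*-knockout replicates 1 and 2 summed, and 11 to 20 when 1 culture was left out, with 11 without knockout replicate 1 and 11 without knockout replicate 2. With at least 10 counts in every library they were 12 of the 36 tested. All of them were higher in the knockout cultures in each of these fits. The share of all genes at this unadjusted threshold was counted only in the main fit, where 6.14% were higher. These counts thus cannot tell a shift of the repair genes from a shift of all genes. The median log2 fold change stayed between 0.34 and 0.51 in 14 alternatives. The number of repair genes without overlap, 21 in either direction, was 21 or 22 under the other scalings and 21 to 27 when 1 culture was left out. A gene without overlap in all cultures stays so when a culture is left out. The last range could thus hardly fall below 21 and says nothing on stability. Of 317 values of the 23 repair genes given in full, 17 passed the threshold and 2 changed sign, neither of them past it: *Rad50* was -0.05 without wildtype replicate 1 (range without 1 culture up to 0.31) and *Fancc* was 0.06 without wildtype replicate 2 (range from -0.48). Over all genes, the count of 9 was 21 with no filter, 21 with at least 10 counts in every library, 627 with DESeq2 and 1 with knockout replicates 1 and 2 summed, and it ranged from 0 to 395 when 1 culture was left out (395 without wildtype replicate 2).

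No pairing by replicate number was seen: deviations of same-numbered libraries correlated at 0.207, -0.189 and 0.111, and knockout replicate 2 correlated best with wildtype replicate 1, at 0.376. With so few libraries per genotype, and wildtype replicate 2 far from the others, these values cannot exclude a pairing. With the replicate number as a block, edgeR gave 0 repair genes with an adjusted p under 0.05, 16 with an unadjusted p under 0.05 and a median log2 fold change of 0.44. At an adjusted p under 0.05 the block left 2 genes of all tested, and the share at the unadjusted threshold was not counted. Depth limits the lowest genes: *Fanca*, *Exo1*, *Eme1*, *Rad54b* and *Dna2* had fewer than 10 reads in at least 1 wildtype library.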
